A study of Avena sativa with 6 samples.

Results

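Sucrose synthases and invertases are the enzymes that open sucrose, the sugar that arrives in a filling grain through the phloem. The genes described here are the 65 of 136488 in the deposited table whose KEGG text holds K00695, the ortholog of sucrose synthase (26 genes), or K01193, that of invertase or beta-fructofuranosidase (39 genes). The measured material was peeled grain of oat, Avena sativa, of the high-oil cultivar Baiyan No.9 (BY9). In 3 libraries the ears had been shaded for 4 days after flowering, and in 3 the ears were not shaded. The unit is FPKM, which divides a gene's fragments by its length and by the library's total, so levels of different genes can be set side by side. Whether the 3 libraries of a group stem from different plants is not stated in the labels. The p-values therefore describe library-to-library spread, which may be technical.

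Sucrose synthase cleaves sucrose with UDP in a reversible reaction and yields fructose and UDP-glucose, a precursor of starch and of cell wall polysaccharides. Invertase hydrolyses sucrose irreversibly to glucose and fructose. The invertase genes matched here belong to the glycosyl hydrolase family of cell wall and vacuolar acid invertases, a family that also holds the enzymes that build and trim fructans. Alkaline and neutral invertases form a separate family and are treated below with the neighbouring enzymes. In cereal grains, sucrose synthase is the main cleaving enzyme of the filling endosperm, while acid invertases are known for a role in young grains and in maternal tissues.

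The summed levels of the routes differed in opposite directions. Sucrose synthase transcripts were abundant and lower in grains of shaded ears, with 7 of 10 tested genes lower and 0 higher. Invertase transcripts were scarce, and their sum was higher there. Of 11 tested invertases 6 were called higher, near the share over all tested genes given below, and 1 lower. The summed level of sucrose synthase was 2570.4 ± 314 FPKM (SD, n = 3) in unshaded against 1355 ± 174 FPKM in ear-shaded grains. That of invertase was 39.3 ± 12.5 and 104 ± 19.1 FPKM, a log2 change of 1.40. With invertases taken by description text in place of ortholog, which brings in 113 genes with inhibitor text, that change was -0.01. Those 113 genes held 551 of the 639 FPKM of that sum in unshaded and 470 of 636 FPKM in ear-shaded grains. The text-based sum is thus mostly one of inhibitor text. The counts of called genes come from a limma fit over all 58283 genes averaging 1 FPKM or more, at a Benjamini-Hochberg adjusted p under 0.05. Of all genes tested, 42.4% were called higher and 21.5% lower under shading. The median log2 fold change, on the log2(FPKM + 1) scale, was -0.74 over the 10 sucrose synthases and 1.40 over the 11 invertases, against 0.26 over all tested genes. Since RNA came from peeled grains of several cell types, fewer cells of a type and less RNA per cell cannot be told apart.

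**Figure D1:**
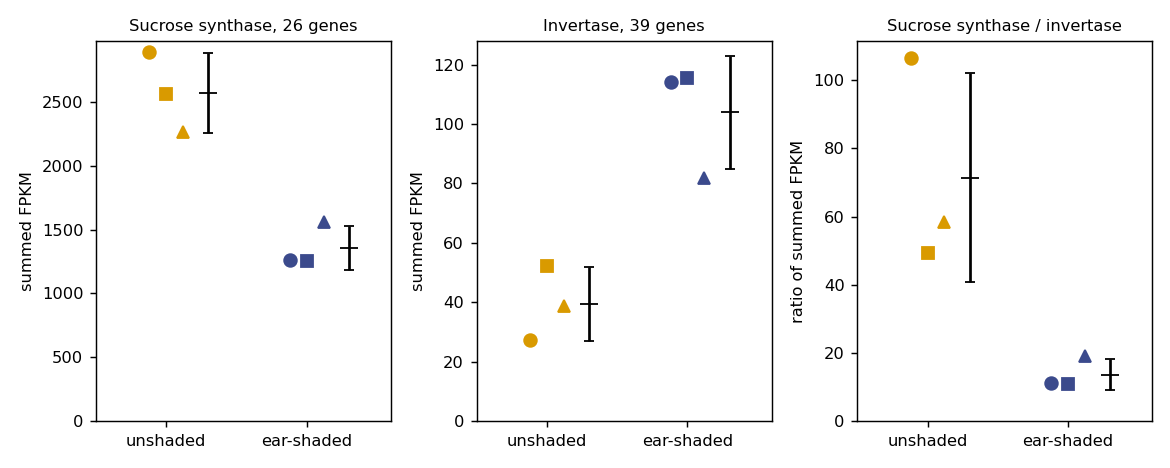
Summed FPKM of the 26 sucrose synthase genes and of the 39 invertase genes, and the ratio of these sums, in each library (points, shaped by replicate number), with the mean and SD of 3 libraries in black. Every unshaded library lies above every ear-shaded one for sucrose synthase and for the ratio, and below for invertase; with quantile normalization the summed sucrose synthase changed by -0.10 on the log2 scale in place of -0.92.

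Libraries differed in ways that touch these values. The closest pair within a group was ear-shaded replicates 1 and 2 (r = 0.9891 over genes), while the other pairs ranged from 0.9495 to 0.965. With that pair averaged into 1 sample, 5 sucrose synthases were lower, 5 invertases higher and 1 lower, beside 35.3% of all tested genes higher and 18% lower. The adjusted p then rose to 0.147 for 6AG1056840, 0.0874 for 7AG1207500 and 0.0843 for 2AG0245080, all described below. Library totals ran from 493004.4 to 561771.7 FPKM, and the number of reads behind them is unknown. Genes with gliadin text mark the storage protein of the endosperm. With all libraries kept apart, 23 of the 27 tested were lower and 0 higher, beside 21.5% and 42.4% of all tested genes. The sum over all 28 such genes was 23016, 12859.9 and 11373 FPKM in unshaded against 3229, 3216 and 5486 FPKM in ear-shaded replicates 1, 2 and 3. Light-harvesting genes, which mark green tissue, were higher in 41 of 41 tested genes, beside 42.4% of all tested genes. Of all 87 such genes 1 averaged 1 FPKM or more in unshaded grains and 45 in ear-shaded ones. Nearly all the tested ones thus passed the filter only through the ear-shaded libraries, so that count was largely set by the filter. The sum over all 87 light-harvesting genes ranged from 12.8 to 20.8 FPKM in unshaded libraries and from 583 to 728 FPKM in ear-shaded libraries. Of those 87 genes 0 were listed at 0 in every library, but 28 were at 0 in every unshaded library. Of the 28 gliadin genes 0 were at 0 in every unshaded library. Genes with oleosin text, which mark oil bodies, had 5 of 5 tested genes lower, beside 21.5% of all tested genes. Of all 9 such genes 8 averaged 1 FPKM or more in unshaded grains and 3 in ear-shaded ones. Some of the tested ones thus passed the filter only through the unshaded libraries, so that count was partly set by the filter. The sum over all 9 ranged from 18.2 to 32.01 FPKM in unshaded libraries and from 7.05 to 7.61 FPKM in ear-shaded libraries, with 0 listed at 0 in every library. The part of these tissue differences in the sucrose synthase and invertase results was not tested.

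Sucrose synthase expression rested on few genes. The 9 most abundant made up between 99.5% and 99.9% of the family's FPKM in every library. The family's sum took 0.523, 0.456 and 0.426% of all FPKM in unshaded replicates 1, 2 and 3 and 0.255, 0.253 and 0.305% in ear-shaded ones. Each ear-shaded share lay below each unshaded one.

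The most abundant sucrose synthase was AVESA.00010b.r2.6AG1056840. It stood at 722, 697 and 583 FPKM in unshaded replicates 1, 2 and 3 and at 384, 375 and 489 FPKM in ear-shaded ones. The groups did not overlap, and ear-shaded replicate 3 lay nearest to the unshaded libraries. The gene was 1.603-fold lower in mean FPKM, with a log2 fold change of -0.68 ± 0.25 (SE) and an adjusted p of 0.0418 by limma. The call was a close one. It ended without unshaded replicate 1 (adjusted p = 0.126), 2 (0.132) or 3 (0.0648) and without ear-shaded replicate 1 (0.148) or 2 (0.151). With quantile normalization the sign turned, to 0.47 (limma adjusted p = 0.0292). The gene ranked 39 of 136488 by mean FPKM in unshaded grains and 20 in ear-shaded grains. Its share of the family's FPKM was 24.99, 27.2 and 25.8% unshaded and 30.5, 30.1 and 31.4% ear-shaded, so the other copies together fell by more.

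The next gene by level, AVESA.00010b.r2.4CG1266890, was at 624, 593 and 508 FPKM in unshaded against 211, 208 and 264 FPKM in ear-shaded replicates 1, 2 and 3. Its unshaded values overlapped those of 6AG1056840 (IDs are given by their last part from the second mention on), while its ear-shaded values lay wholly below them. It was 2.52-fold lower, with a log2 fold change of -1.34 ± 0.23 (SE) and an adjusted p of 0.00137 by limma.

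AVESA.00010b.r2.5AG0811470 and AVESA.00010b.r2.5DG0996560 formed a pair of nearly equal level in unshaded grains. The first was at 407, 304 and 301 FPKM unshaded and 161, 159.7 and 188 FPKM ear-shaded. The second was at 409, 315 and 318 FPKM unshaded and 123, 123 and 143 FPKM ear-shaded. Their unshaded values overlapped, and in ear-shaded grains every value of 5DG0996560 lay below every value of 5AG0811470. The folds were 1.99 and 2.67, and 5DG0996560 had the largest decrease among the tested sucrose synthases, with a log2 fold change of -1.40 ± 0.20 (SE) and an adjusted p of 0.000623 by limma. For 5AG0811470 the change was -0.98 (limma adjusted p = 0.00471), a call that ended with quantile normalization (adjusted p = 0.152).

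A further 3 copies were of lower level. AVESA.00010b.r2.4CG1312670 was at 164, 143 and 113 FPKM in unshaded against 57.6, 58.3 and 68.9 FPKM in ear-shaded libraries. It fell 2.27-fold, a log2 fold change of -1.16 ± 0.19 (SE) and an adjusted p of 0.0012 by limma. AVESA.00010b.r2.5CG0871320 was at 130.2, 110.3 and 101 FPKM unshaded and 62.7, 62.8 and 67.8 FPKM ear-shaded, and AVESA.00010b.r2.7AG1207500 at 126, 112 and 97.9 FPKM unshaded and 74.98, 76.01 and 81.9 FPKM ear-shaded. These last genes overlapped each other in unshaded grains but not in ear-shaded ones, where 7AG1207500 was the higher. In both, the ear-shaded libraries lay wholly below the unshaded ones. For 5CG0871320 the change was -0.81 (limma adjusted p = 0.00301) and for 7AG1207500 it was -0.52 (adjusted p = 0.0237). The call of 7AG1207500 ended without unshaded replicate 1 (adjusted p = 0.086) or 2 (0.0604), without ear-shaded replicate 1 (0.0911) or 2 (0.0861) and with quantile normalization (0.477).

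**Figure D2:**
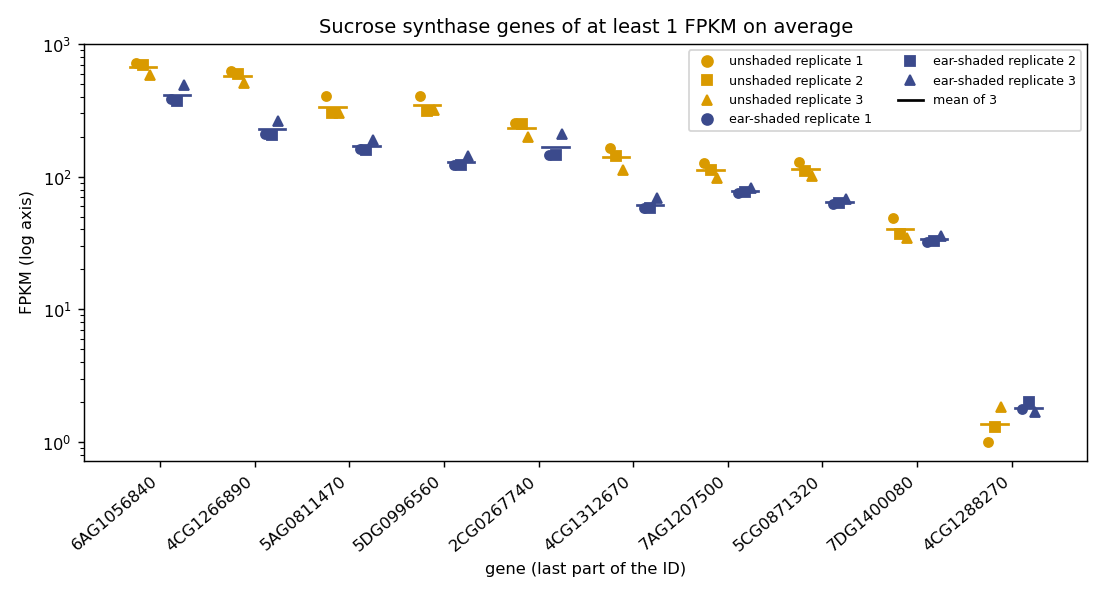
FPKM (log axis) of the 10 sucrose synthase genes averaging 1 FPKM or more, in each of 6 libraries, ordered by mean level; points are libraries, shaped by replicate number, and lines are means of 3. In 7 genes every ear-shaded library lies below every unshaded one, and ear-shaded replicates 1 and 2 nearly coincide; the sign of 6AG1056840 turned under quantile normalization.

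The remaining 3 tested sucrose synthases did not pass. AVESA.00010b.r2.2CG0267740 was at 255, 248 and 199 FPKM in unshaded against 146, 146 and 211 FPKM in ear-shaded libraries, where replicate 3 reached into the unshaded range (log2 fold change of -0.49, 95% interval from -1.01 to 0.04, limma adjusted p = 0.0918). It passed as lower without ear-shaded replicate 3 (log2 fold change -0.66, adjusted p = 0.0172) and with median-of-ratios scaling (-0.88), without a variance trend (adjusted p = 0.0453) and with library weights (0.00415). With quantile normalization its sign turned, to 0.23. AVESA.00010b.r2.7DG1400080 was at 48.5, 37.1 and 34.7 FPKM unshaded and 32.3, 32.8 and 35.6 FPKM ear-shaded (log2 fold change of -0.23, 95% interval from -0.60 to 0.13, limma adjusted p = 0.227). Median-of-ratios scaling (-0.62) and library weights (adjusted p = 0.0275) called it lower. AVESA.00010b.r2.4CG1288270, a locus of only 396 bases, was at 0.993, 1.28 and 1.82 FPKM unshaded and 1.76, 1.98 and 1.68 FPKM ear-shaded (log2 fold change of 0.26, 95% interval from -0.08 to 0.61, limma adjusted p = 0.158). It passed as higher without unshaded replicate 3 (log2 fold change 0.39, adjusted p = 0.0325) and with library weights (0.0213).

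The other 16 sucrose synthases had a mean under 1 FPKM and were not tested. Their highest single value was 1.05 FPKM, and together they summed to a mean of 2.44 FPKM in unshaded against 4.48 FPKM in ear-shaded grains. In 15 of the 16 the ear-shaded mean was the higher and in 1 the lower, at levels where single values carry little weight. The gene nearest above the limit was 4CG1288270, with a mean of 1.59 FPKM over 6 libraries, and the nearest below was AVESA.00010b.r2.5DG1000030, with 0.759.

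The abundant and the scarce sucrose synthases also differed in the gene ontology terms that the table attaches to them. All 10 tested genes carried terms for vacuole, plasma membrane, plasmodesma, response to hypoxia and response to water deprivation. None of the 10 carried the term for callose deposition in the phloem sieve plate, which 7 of the 16 scarce genes carried together with the cell wall term. The terms come from the table's annotation and were not measured in these grains. By the subgenome letter in the gene ID, the summed level was 1117 ± 137 FPKM unshaded and 665 ± 82.9 FPKM ear-shaded for A copies. It was 1065 ± 129 and 525 ± 78.1 FPKM for C copies, and 388 ± 60.3 and 165 ± 13.3 FPKM for D copies. A further 3 genes carry no subgenome letter. All 3 subgenomes contributed to the family, and the folds of their sums were 1.68, 2.03 and 2.35. Oat is hexaploid and close copies may divide reads among them, so a sum over copies depends less on that division than a single gene does.

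The invertases were expressed far below the sucrose synthases. In unshaded grains the most abundant one on average had 5.53 ± 4.12 FPKM, below the 40.1 ± 7.37 FPKM of the ninth sucrose synthase, 7DG1400080. In ear-shaded grains 5 invertases had means of more than 12 FPKM. All 5 carry closely spaced ID numbers on chromosomes 2A and 2D.

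On chromosome 2A, AVESA.00010b.r2.2AG0244990 was nearly constant within each group. It was at 1.95, 1.48 and 1.92 FPKM in unshaded replicates 1, 2 and 3 and at 12.4, 13.1 and 12.6 FPKM in ear-shaded ones. No library stood apart from its group, and the gene was 7.12-fold higher under shading, with a log2 fold change of 2.30 ± 0.12 (SE) and an adjusted p of 1.36e-05 by limma.

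Its neighbours by ID were more variable. AVESA.00010b.r2.2AG0245070 was at 1.197, 5.62 and 1.82 FPKM in unshaded against 21.3, 21.8 and 11.4 FPKM in ear-shaded libraries. AVESA.00010b.r2.2AG0245080 was at 2.75, 10.3 and 3.57 FPKM unshaded and 20.2, 20.7 and 7.93 FPKM ear-shaded. In both genes unshaded replicate 2 was the highest of its group and ear-shaded replicate 3 the lowest of its group, and in 2AG0245080 the groups overlapped through these libraries. The first was 6.31-fold higher (12.03-fold without unshaded replicate 2), with a log2 fold change of 2.42 ± 0.41 (SE) and an adjusted p of 0.00146 by limma. The second was 2.94-fold higher (5.15-fold without unshaded replicate 2), with a log2 fold change of 1.47 ± 0.47 (SE) and an adjusted p of 0.026 by limma. The call of 2AG0245080 ended without unshaded replicate 1 (adjusted p = 0.086) or 3 (0.0774), without ear-shaded replicate 1 (0.0832) or 2 (0.0847) and with median-of-ratios scaling (0.0768).

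Both tested genes among the closely spaced IDs of chromosome 2D were also higher, by different folds. AVESA.00010b.r2.2DG0358330 was at 5.08, 6.27 and 4.31 FPKM in unshaded against 16.8, 17.97 and 11.8 FPKM in ear-shaded libraries, 2.98-fold higher, with a log2 fold change of 1.40 ± 0.19 (SE) and an adjusted p of 0.000443 by limma. AVESA.00010b.r2.2DG0358270 was at 0.932, 4.75 and 1.09 FPKM unshaded and 16.1, 15.98 and 7.29 FPKM ear-shaded, again with unshaded replicate 2 above the other unshaded libraries. It was 5.81-fold higher, or 13-fold without unshaded replicate 2, with a log2 fold change of 2.23 ± 0.45 (SE) and an adjusted p of 0.0033 by limma.

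A run of IDs on chromosome 2C stayed at a low level. Its 4 genes had means under 1 FPKM and were not tested. Summed, they were at 0, 6.12 and 1.72 FPKM in unshaded replicates 1, 2 and 3 and at 0.188, 0.0706 and 0.105 FPKM in ear-shaded ones. Unshaded replicate 1 lay below the ear-shaded libraries, and unshaded replicate 2 made up most of the unshaded total. Most of that came from AVESA.00010b.r2.2CG0323800, which was listed at 0 in unshaded replicate 1 and in all 3 ear-shaded libraries and had 5.15 and 0.682 FPKM in unshaded replicates 2 and 3. The 5 genes of the 2A run summed to 6.18, 17.8 and 7.51 FPKM unshaded and 54.5, 56.4 and 32.5 FPKM ear-shaded, and the 4 genes of the 2D run to 6.27, 11.2 and 5.64 FPKM unshaded and 33.6, 34.6 and 19.6 FPKM ear-shaded. In each of the 3 runs unshaded replicate 2 was the highest unshaded library. The runs were chosen after their values were seen.

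Outside these runs, 2 more invertases passed. AVESA.00010b.r2.1CG0119160 was at 1.07, 0.894 and 1.51 FPKM in unshaded against 5.63, 4.84 and 3.82 FPKM in ear-shaded libraries, with no overlap. It was 4.11-fold higher, with a log2 fold change of 1.42 ± 0.16 (SE) and an adjusted p of 0.00023 by limma. AVESA.00010b.r2.7CG0701180 was the one tested invertase that fell. It was at 4.04, 2.48 and 5.25 FPKM in unshaded against 1.08, 1.19 and 1.17 FPKM in ear-shaded libraries, 3.43-fold lower, with a log2 fold change of -1.16 ± 0.20 (SE) and an adjusted p of 0.00171 by limma. It was the third most abundant invertase in unshaded grains by mean and the last of the 11 in ear-shaded ones.

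**Figure D3:**
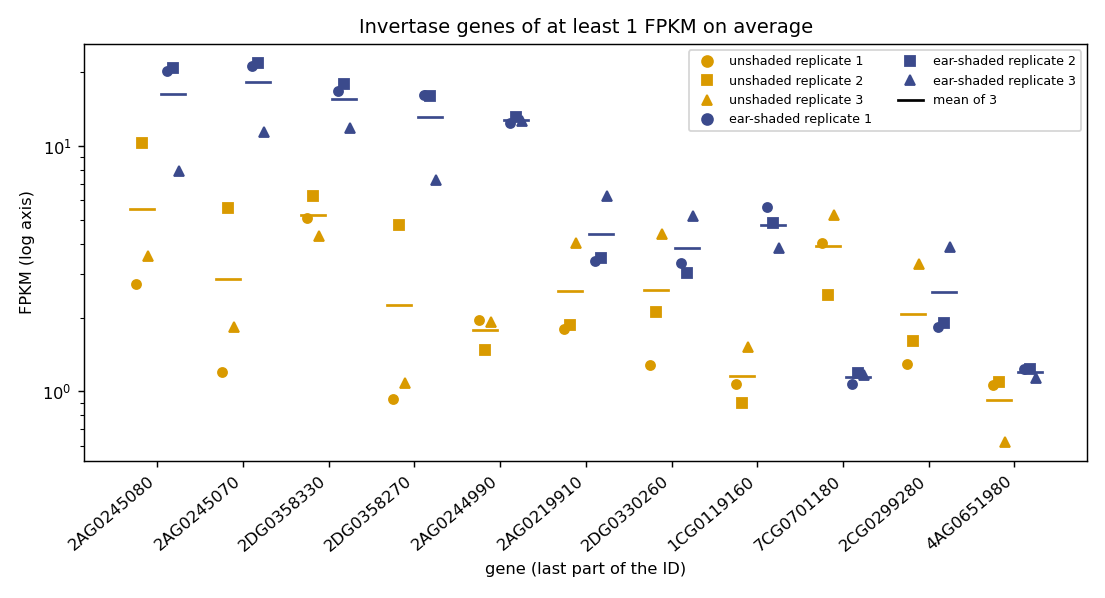
FPKM (log axis) of the 11 invertase genes averaging 1 FPKM or more, in each of 6 libraries, ordered by mean level; points are libraries, shaped by replicate number, and lines are means of 3. The 5 genes on the left, from chromosomes 2A and 2D, lie higher in ear-shaded grains on average, with unshaded replicate 2 reaching up in 3 of them, and 7CG0701180 lies lower.

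Another 3 invertases from chromosome 2 did not pass in the fit reported here. AVESA.00010b.r2.2AG0219910 was at 1.801, 1.86 and 4.04 FPKM in unshaded against 3.39, 3.499 and 6.24 FPKM in ear-shaded libraries (log2 fold change of 0.61, 95% interval from -0.04 to 1.25, limma adjusted p = 0.0888). AVESA.00010b.r2.2DG0330260 was at 1.28, 2.101 and 4.38 FPKM unshaded and 3.33, 3.04 and 5.21 FPKM ear-shaded (log2 fold change of 0.50, 95% interval from -0.21 to 1.22, limma adjusted p = 0.186). AVESA.00010b.r2.2CG0299280 was at 1.295, 1.61 and 3.31 FPKM unshaded and 1.83, 1.89 and 3.87 FPKM ear-shaded (log2 fold change of 0.21, 95% interval from -0.46 to 0.88, limma adjusted p = 0.547), and its sign turned with median-of-ratios scaling, with quantile normalization and without ear-shaded replicate 3 (log2 fold change -0.05 in each). In all 3 genes replicate 3 was the highest library of both groups, so the groups overlapped. Without unshaded replicate 3 the first passed as higher (log2 fold change 0.89, adjusted p = 0.0141) and so did the second (0.84, adjusted p = 0.0161). Library weights also called both higher (adjusted p = 0.0273 and 0.0462). The last tested gene, AVESA.00010b.r2.4AG0651980, also carries the text of a fructan fructosidase, an enzyme that trims fructans. It was at 1.06, 1.097 and 0.622 FPKM unshaded and 1.24, 1.24 and 1.14 FPKM ear-shaded (log2 fold change of 0.20, 95% interval from -0.11 to 0.52, limma adjusted p = 0.22), and its sign turned with median-of-ratios scaling and quantile normalization.

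The 4 invertases that did not pass were also the 4 tested ones to carry a cell wall term in the table's gene ontology, although 2 of them, 2AG0219910 and 2DG0330260, passed under the alternatives named above. The 7 that passed carried no gene ontology term at all, so their place in the cell is not given by the table. Of all 39 invertases, 20 carried the cell wall term and 2 the vacuole term, and 19 carried none.

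The other 28 invertases had means under 1 FPKM, and 21 of them stayed under 1 FPKM in every library. In 20 the ear-shaded mean was the higher and in 8 the lower, and 5 were listed at 0 in every unshaded library. Together they summed to a mean of 8.36 FPKM in unshaded against 10.2 FPKM in ear-shaded grains. The limit fell between 4AG0651980, with a mean of 1.06 FPKM, and AVESA.00010b.r2.4DG0791180, with 0.982. The 10 genes with fructan fructosidase text, 9 of them under the limit, summed to 4.49, 5.41 and 4.304 FPKM in unshaded against 9.83, 9.17 and 8.201 FPKM in ear-shaded libraries, which did not overlap. By subgenome letter, A copies of invertase summed to 15.4 ± 6.59 FPKM unshaded and 56.1 ± 12 FPKM ear-shaded, and D copies to 13.7 ± 3.65 and 38.97 ± 7.57 FPKM. The C copies summed to 10.2 ± 3.18 and 8.87 ± 0.544 FPKM, a difference smaller than the spread of the unshaded libraries.

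**Figure D4:**
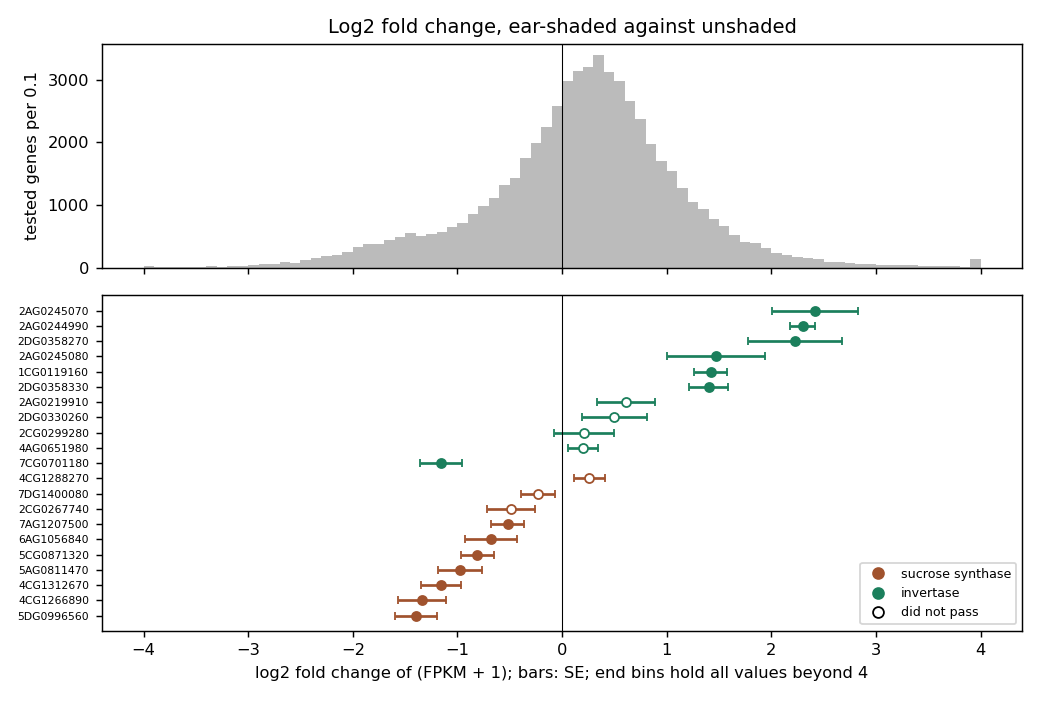
Upper panel, the number of tested genes by log2 fold change of ear-shaded against unshaded grains; lower panel, the log2 fold change with its SE of each tested sucrose synthase and invertase, filled where the gene passed. Sucrose synthases run from -1.40 to 0.26 and invertases from -1.16 to 2.42, around a median of 0.26 for all tested genes; the signs of 6AG1056840 and 2CG0267740 turned with quantile normalization, of 2CG0299280 and 4AG0651980 with that and median-of-ratios scaling.

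Set against each other in the same library, the routes came closer under shading. The sucrose synthase sum was 107, 49.2 and 58.5 times the invertase sum in unshaded replicates 1, 2 and 3. It was 11.02, 10.8 and 19.01 times the invertase sum in ear-shaded ones. The groups did not overlap, and the mean ratio fell 5.25-fold, from 71.4 ± 30.8 to 13.6 ± 4.68 (SD, n = 3). Unshaded replicate 1 had both the highest sucrose synthase and the lowest invertase sum. Without it the fall was 3.96-fold. On the log2 scale the ratio changed by -2.39, which 1 scaling factor per library leaves as it is. The change was -1.36 with quantile normalization. It was -1.04 with members taken by description text, where genes with inhibitor text made up most of the invertase sum. Sucrose synthase remained the more abundant route in each of the 6 libraries.

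Libraries that did not overlap were also counted. In 7 of 10 tested sucrose synthases the ear-shaded libraries lay wholly below the unshaded ones, against 24% of all tested genes. In 6 of 11 tested invertases they lay wholly above, 5 of them called genes and 1 the uncalled 4AG0651980, against 46.2% of all tested genes. The invertase share is thus near the background, and the share called higher, 6 of 11, stands beside a background of 42.4%. With median-of-ratios scaling, where the median of all genes moved to -0.02, 9 sucrose synthases were lower and 0 higher, and 5 invertases were higher and 1 lower, beside 28% of all tested genes higher and 31.1% lower. With quantile normalization 4 sucrose synthases were lower and 1 higher, while 6 invertases were higher and 1 lower, beside 31.2% and 28.6% of all tested genes.

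In the authors' deposited table, where every marked gene has an absolute log2 fold change above 1 and an adjusted p under 0.05, 6 sucrose synthases were marked down and 0 up. The same table marked 9 invertases up and 3 down. Of all 136488 genes there, 13.4% were marked up and 12.9% down. The authors' deposited table gives 6AG1056840 a log2 fold change of -1.07 with an adjusted p of 4.68e-06. Over all tested genes the authors' deposited log2 fold changes lay a median of 0.382 below the log2 ratio of mean FPKM, so they are not on one scale with the limma values. For 2AG0245080 the authors' deposited table gives 1.14 with an adjusted p of 0.201, and no mark. Of the 12 marked invertases there, 6 had means under 1 FPKM, among them 3 of the genes with fructan fructosidase text, marked up, and 2CG0323800, marked down.

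Other enzymes of sucrose metabolism were taken by KEGG ortholog or annotation text. They comprised 159 genes, of which 98 were tested, with 52 higher and 14 lower, beside 42.4% and 21.5% of all tested genes. The gene named for each enzyme is the one with the highest mean over all 6 libraries. Of the enzymes that make sucrose, the first step rose in every tested gene. Sucrose-phosphate synthase, the committed step, was higher in 16 of 16 tested genes, with log2 fold changes from 0.43 to 1.92. Of its 18 genes 14 averaged 1 FPKM or more in unshaded grains and 17 in ear-shaded ones, so some were tested only through their ear-shaded level. The 18 genes of this enzyme summed to 75.5, 70.6 and 90.1 FPKM in unshaded against 191, 188 and 142 FPKM in ear-shaded replicates 1, 2 and 3. Its most abundant gene, AVESA.00010b.r2.UnG1464680, is a locus of only 372 bases. It was at 22.6, 22.2 and 28.5 FPKM unshaded and 63.5, 62.9 and 42.7 FPKM ear-shaded. Its log2 fold change was 1.16 ± 0.19 (SE), with an adjusted p of 0.00133 by limma. Other tested loci of this enzyme were also short, among them ones of 558, 1185 and 1192 bases, against 3971 bases in the longest. Whether each of the 16 is a separate full gene was not tested. With median-of-ratios scaling 12 of the 16 were higher and 0 lower, beside 28% and 31.1% of all tested genes. Sucrose-phosphate phosphatase, the last step of sucrose synthesis, had 2 of 4 tested genes higher and 1 lower, and its most abundant gene, AVESA.00010b.r2.2AG0209480, missed the threshold at 8.05 ± 1.102 and 7.38 ± 0.8301 FPKM. In ear-shaded grains 2 other genes of this enzyme, both called higher, had higher means. Median-of-ratios scaling called that gene lower (-0.46), and its sign turned when each library was scaled to the same sum.

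The enzymes that take up the products of cleavage had calls in both directions, beside 42.4% higher and 21.5% lower among all tested genes. The shares called higher in fructokinase and hexokinase were near that background. Fructokinase, which phosphorylates the fructose released by both routes, had 5 of 11 tested genes higher and 3 lower. Its most abundant gene, AVESA.00010b.r2.7DG1365370, was lower, at 219, 264 and 192 FPKM in unshaded against 103, 101 and 158 FPKM in ear-shaded libraries, with a log2 fold change of -0.91 ± 0.24 (SE) and an adjusted p of 0.011 by limma. That call ended without ear-shaded replicate 1 (adjusted p = 0.0524) or 2 (0.0525) and with quantile normalization (0.12). The 15 fructokinase genes summed to 547 ± 82.7 FPKM unshaded and 385 ± 74.1 FPKM ear-shaded. Hexokinase, which phosphorylates the glucose that invertase releases, had 6 of 14 higher and 5 lower, with sums of 119 ± 4.03 and 120.4 ± 1.92 FPKM. Its most abundant gene, AVESA.00010b.r2.4DG0786920, was lower, from 20.8 ± 1.25 to 12.9 ± 1.35 FPKM (log2 fold change -0.66, limma adjusted p = 0.00242). In ear-shaded grains 3 other hexokinase genes had higher means.

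The uridylyltransferase that converts UDP-glucose to glucose 1-phosphate is the step after sucrose synthase on the way to starch. Of its 4 tested genes 2 were higher and 1 lower. The background for this and the next enzymes is 42.4% higher and 21.5% lower among all tested genes. The most abundant over all libraries, AVESA.00010b.r2.5CG0875260, had the lowest unshaded mean of the 4. It was at 38.99, 28.9 and 36.4 FPKM in unshaded against 115, 109.9 and 97.8 FPKM in ear-shaded libraries, with no overlap, a log2 fold change of 1.61 ± 0.17 (SE) and an adjusted p of 0.000139 by limma. The gene with the next ID, AVESA.00010b.r2.5CG0875270, named after its values were seen, was lower, from 44.8 ± 4.799 to 21.3 ± 2.56 FPKM. Phosphoglucomutase, which interconverts glucose 1-phosphate and glucose 6-phosphate, had 3 of 5 genes higher and 0 lower, and its most abundant gene, AVESA.00010b.r2.4AG0603240, missed the threshold at 134 ± 4.74 and 121 ± 12.2 FPKM (limma adjusted p = 0.448). Its sign turned with quantile normalization. Glucose-6-phosphate isomerase, which converts glucose 6-phosphate to fructose 6-phosphate, had 0 of 7 higher and 1 lower, and its most abundant gene, AVESA.00010b.r2.5DG0960980, was at 45.9 ± 5.37 and 42.7 ± 2.599 FPKM. That gene did not pass (limma adjusted p = 0.572), and its sign turned when each library was scaled to the same sum.

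Alkaline and neutral invertases, which cleave sucrose inside the cell, differed less in their sum than the acid family, with no test of that difference. Of 17 tested genes 5 were higher, 1 was lower and 11 did not pass, beside 42.4% higher and 21.5% lower among all tested genes. The median log2 fold change was 0.20. With median-of-ratios scaling 3 were higher and 3 lower, beside 28% and 31.1% of all tested genes. The sum over 30 genes was 46.9, 47.1 and 51.2 FPKM in unshaded against 62.5, 61.1 and 61.9 FPKM in ear-shaded libraries, a 1.28-fold difference. In unshaded grains this sum was above that of the 39 acid invertases in 2 of 3 libraries, and in ear-shaded grains it was below it in all 3. With this family added to the invertase route, the sucrose synthase sum was 39.1, 25.8 and 25.2 times the invertase sum in unshaded libraries and 7.13, 7.07 and 10.8 times in ear-shaded ones. The most abundant gene, AVESA.00010b.r2.4DG0735090, missed the threshold at 5.25 ± 0.881 and 5.22 ± 0.103 FPKM, and median-of-ratios scaling called it lower (-0.33).

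Genes with the text invertase inhibitor, proteins that block acid invertases, had 0 of 4 tested genes past the threshold in limma and 1 of 4 at an unadjusted p under 0.05. Their most abundant gene, AVESA.00010b.r2.2DG0367130, was at 1.38, 7.295 and 3.58 FPKM in unshaded against 6.598, 8.404 and 9.23 FPKM in ear-shaded libraries (log2 fold change of 1.01, 95% interval from 0.09 to 1.92, limma adjusted p = 0.055). Unshaded replicate 2 was the highest of its group here as well, and without it the gene passed as higher (log2 fold change 1.45, adjusted p = 0.00373). Without that library 2 of the 4 genes were higher, beside 37.9% of all tested genes. The gene also passed with each library scaled to the same sum (limma adjusted p = 0.0328) and with library weights (0.012). Genes with the text invertase inhibitor are a small part of the 113 whose description holds both invertase and inhibitor text. Of the 113, 59 were tested, with 17 higher and 10 lower, beside 42.4% and 21.5% of all tested genes. The 113 summed to 551 ± 183 FPKM unshaded and 470 ± 109 FPKM ear-shaded.

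Fructosyltransferases, which belong to the same hydrolase family as the acid invertases and build fructans from sucrose, had 28 genes. Of the 16 tested 13 were higher and 2 lower, beside 42.4% and 21.5% of all tested genes, with a median log2 fold change of 1.42. With median-of-ratios scaling 9 were higher and 2 lower, beside 28% and 31.1% of all tested genes. Of the 28 genes 12 averaged 1 FPKM or more in unshaded grains and 19 in ear-shaded ones. Some were thus tested only through their ear-shaded level. The 28 genes summed to 106, 197 and 111 FPKM in unshaded against 398, 394 and 385 FPKM in ear-shaded replicates 1, 2 and 3. This is more than the acid invertases in every library. The most abundant gene, AVESA.00010b.r2.5CG0868010, was at 15.96, 34.8 and 18.1 FPKM unshaded and 43.2, 41.2 and 58.1 FPKM ear-shaded, with a log2 fold change of 1.08 ± 0.29 (SE) and an adjusted p of 0.0114 by limma, which median-of-ratios scaling no longer called (adjusted p = 0.0901).

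**Figure D5:**
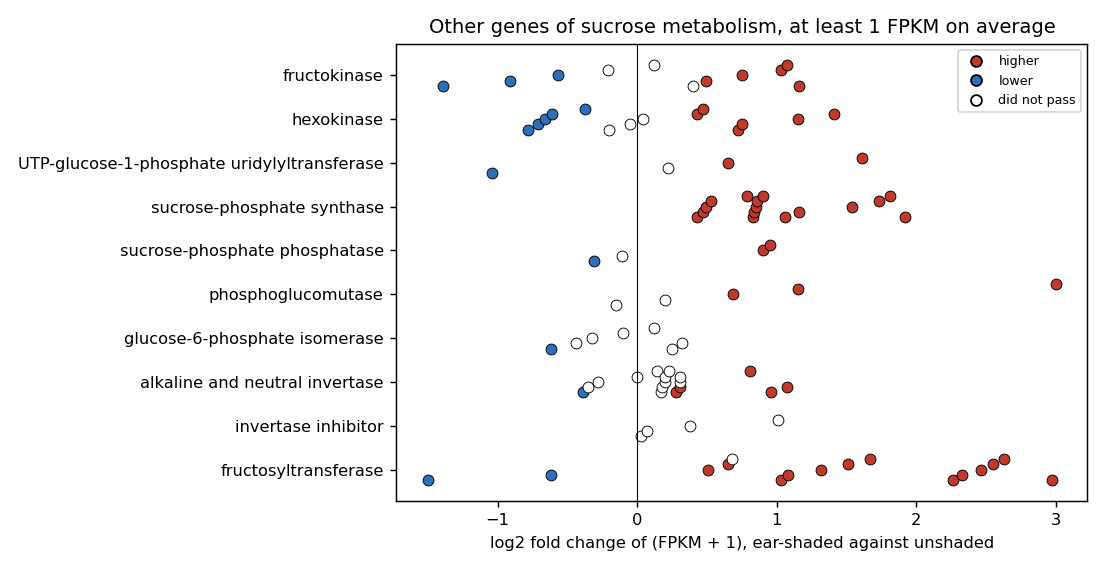
Log2 fold change of ear-shaded against unshaded grains for each tested gene of 10 lists of sucrose metabolism; a point is a gene, red where higher, blue where lower and white where it did not pass. All 16 sucrose-phosphate synthases lie to the right of 0, kinases and the uridylyltransferase lie on both sides, and fructosyltransferases reach 2.97.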

How the data were processed

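RNA of peeled oat grains was sequenced in 3 unshaded and 3 ear-shaded libraries, grouped by the treatment label. The submitters' processing notes list HISAT2 and StringTie with neither version nor role. The genome build and the authors' test were not given in the sources used here. In the deposited table the authors report the FPKM of each gene in each library. Gene lengths, log2 fold changes and p-values by the authors stand beside them. No reference sequence was used here.

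Genes were taken by the KEGG orthologs K00695 and K01193 and tested on log2(FPKM + 1) with limma (limma 3.58.1, R 4.3.3, mean-variance trend, two-sided). The fit ran over the 58283 genes that averaged 1 FPKM or more. Benjamini-Hochberg adjustment covered all of them, with a threshold of 0.05. Fold changes on that scale understate those of low genes, and folds without log2 are ratios of mean FPKM. Sums over a family carry no test.

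Every tested member is named, and of each neighbouring enzyme the most abundant gene. Members and lists were chosen with earlier results of these data known. Some loci join texts of 2 functions, as 2AG0219480, which is counted with the neutral invertases and also carries histone deacetylase text.

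Depth is unknown. In a search for whole reads among low values, 22.1% to 26.6% lay within 0.05 of a whole number at the best step, so no count model was used. On simulated data with the spread of these genes (58283 genes, 50 changed at each size) 0% of changes of 0.5 on the log2 scale, 48% of changes of 1 and 84% of changes of 2 were found, with 8 false calls. In the real fit 42.4% of genes were called higher and 21.5% lower, far more than were changed in the simulation. The adjusted threshold depends on that share, so the simulated rates do not carry over to the real fit. Alternatives covered the pseudocount, filter, scaling, variance model, replicate block, member rule and each library left out.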

Additional observations from a re-analysis of the deposited data

How the results depend on the processing

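With each library left out in turn, 5 to 8 sucrose synthases were lower and 0 to 1 higher, and 5 to 7 invertases were higher and 1 lower. Of the neighbouring genes 46 to 54 were higher and 8 to 14 lower. In these fits 34.8% to 44.5% of all tested genes were higher and 17.8% to 21.6% lower. The log2 change of the sums ranged from -1.03 to -0.83 for sucrose synthase and from 1.20 to 1.66 for invertase, and that of their ratio from -2.71 to -1.98. The cause of each change given here was not tested, unless the setting tests fewer, more or other genes.

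Without a filter 2 of 26 sucrose synthases and 14 of 39 invertases were higher, beside 28.4% of all genes. Under a filter of 5 FPKM 0 of 5 invertases were lower, and 32 of 57 neighbouring genes were higher and 9 lower, beside 38.8% and 28.1% of all genes. Library weights gave 1 sucrose synthase higher, beside 49% of all genes. Averaging ear-shaded replicates 1 and 2 gave 9 of 98 neighbouring genes lower, beside 18% of all genes.

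Median-of-ratios scaling gave log2 changes of -1.33 for the sucrose synthase sum and 1.00 for the invertase sum. Quantile normalization gave 1 sucrose synthase higher and 4 lower, -0.10 for the sum and -1.36 for the ratio. Among genes, signs turned with median-of-ratios scaling for AVESA.00010b.r2.2CG0299280 (-0.05), AVESA.00010b.r2.4AG0651980 (-0.01) and AVESA.00010b.r2.4DG0735090 (-0.33). They turned with quantile normalization for AVESA.00010b.r2.6AG1056840 (0.47), AVESA.00010b.r2.2CG0267740 (0.23), AVESA.00010b.r2.2CG0299280 (-0.05), AVESA.00010b.r2.4AG0651980 (-0.05), AVESA.00010b.r2.4AG0603240 (0.41) and AVESA.00010b.r2.4DG0735090 (-0.21). Scaling to the same sum turned AVESA.00010b.r2.2AG0209480 (0.01) and AVESA.00010b.r2.5DG0960980 (0.03). Leaving out 1 library turned AVESA.00010b.r2.2CG0299280 (-0.05 to 0.48) and, near 0, AVESA.00010b.r2.4DG0735090 (-0.07 to 0.11, and -0.01 with the average of ear-shaded replicates).

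Invertases chosen on description text included 113 genes with inhibitor text, which held most of the summed FPKM. Of 87 tested 28 were higher and 12 lower, beside 42.4% and 21.5% of all genes, with -0.01 for their sum and -1.04 for the ratio. With alkaline and neutral invertases added, a setting chosen after seeing the data, 11 were higher and 2 lower, with 0.92 for the sum and -1.85 for the ratio. No member has an MSTRG ID, so leaving out such loci changed nothing.

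Samples with the same replicate number did not deviate together (r from -0.15 to -0.05). Deviations from the mean of so few libraries are not independent, so whether the numbers pair the samples cannot be told from this. With the replicate block 5 sucrose synthases were lower and 8 invertases higher, beside 19.4% of all genes lower and 38% higher. AVESA.00010b.r2.2AG0219910 (adjusted p = 0.00986) and AVESA.00010b.r2.2DG0330260 (0.0496) were then called higher, and AVESA.00010b.r2.6AG1056840 (0.176) and AVESA.00010b.r2.7AG1207500 (0.0912) lost their call. The inhibitor gene AVESA.00010b.r2.2DG0367130 was also called higher with the block (0.0183).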
